A study of Rattus norvegicus with 9 samples.

Results

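In the sequenced cerebral cortex of 9 rats, 35 of the 40808 annotated transcripts, those that carry an Ensembl identifier among 44059 in all, had at most 3 raw counts in every Sham library and at least 100 in every I/R library. The 35 transcripts were chosen by these measured counts alone, so their levels in the Sham and I/R groups are given as a description, without a test. The I/R + DEX libraries took no part in the choice. A further 5 annotated lncRNA were left out of the list in advance, and 0 of them met its limits, their highest count in any I/R library being 31.

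The Sham group (n = 3) had the neck vessels separated and no wire inserted, and received saline. The I/R group (n = 3) had tMCAO, in which a wire closed the middle cerebral artery for 2 h and was then withdrawn, and also received saline. The I/R + DEX group (n = 3) had the same occlusion and received 50 μg/kg of dexmedetomidine (DEX), a sedative acting on adrenergic receptors, injected into the abdomen 30 min before it. The methods of the study describe this injection alone, while another passage of its text also speaks of DEX given after reperfusion, so the schedule is not certain. All were male Sprague-Dawley rats of 7 to 8 weeks, killed 24 h after tMCAO, and tissue was taken from the cortex at the infarct site. Each library is taken to be 1 rat, and no label says whether the rats of a group were operated on together.

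When blood returns to ischemic cortex, neurons die and surviving glia and vessel cells switch on stress and inflammatory genes, while neutrophils and monocytes enter from the blood with transcripts of their own. A locus can also begin to use another promoter or splice form, so that a transcript appears while the gene as a whole was already expressed. In bulk tissue a transcript carried by newly arrived cells and one switched on in resident cells cannot be told apart, and neither can fewer cells of a type and less RNA per cell. The reference table at hand gave no symbol for any of the 35 identifiers (0 of 40808 matched), so the genes, their functions and their sequences are not given, and the label of the tissue could not be checked against marker genes. Transcripts of one locus could not be recognised either, and some of the 35 may share a gene.

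The library totals were 21691473 to 28600541 counts in Sham, 32479042 to 35092422 in I/R and 31234956 to 36039743 in I/R + DEX. A count of 3, the limit for Sham, was 0.101 to 0.133 CPM (counts per 1000000 counts of the library) in the Sham libraries after scaling by TMM, a method that sets the libraries to a common level using the bulk of the transcripts. The TMM factor was lowest in I/R + DEX replicate 3 (0.88), which raises its CPM relative to the other libraries. Replicate 3 of the I/R + DEX group stood apart from the other rats of its group. A chi-square over the counts of 2 libraries, divided by its degrees of freedom, is near 1 when they differ by sampling alone. It was 301 between replicates 1 and 3, 163 between replicates 2 and 3 and 94 between replicates 1 and 2 of I/R + DEX, against 54 to 105 among the I/R libraries and 23.8 to 28.1 among the Sham libraries. Below, the median fitted change and the number of calls against I/R are given with and without this rat. Ratios of mean levels include it.

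In Sham, 22 of the 35 transcripts had no count in any library and 13 had between 1 and 3 counts in at least 1. Over the 35 together, Sham replicates 1, 2 and 3 held 16, 10 and 6 counts, and the I/R replicates held 25687, 24685 and 23434. As a summed level this was 0.406 ± 0.187 CPM in Sham and 714 ± 28.2 CPM in I/R (SD, n = 3 rats each). The transcript with the lowest mean level in I/R, 3.54 CPM, would have about 79.7 counts at that level in the Sham library with the smallest total, well over the limit of 3. A count of 0 still allows up to 3 counts, and how reads shared by transcripts of a locus were counted is not known. The 22 transcripts were thus not detected in Sham, which does not show that they were absent. Measured against 3 counts in each Sham library, their mean level in I/R was at least 36.1-fold to at least 659-fold higher (median 103.5-fold). These limits follow from the choice and cover counting error only, not the sharing of reads among transcripts.

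In what follows a transcript without an identifier is called by its rank in mean CPM in I/R, from 1 to 35. The counts are not divided by transcript length, so the rank serves only as a name and does not order the abundance of RNA molecules. The mean levels in I/R ran from 3.54 to 163 CPM with a median of 11.2.

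ENSRNOT00000009448, which ranked 1, had 2, 2 and 0 counts in Sham replicates 1, 2 and 3, and 5763, 6075 and 5026 in I/R. In I/R + DEX it had 2169, 5025 and 3532 counts. All 3 rats given DEX thus held it at 2169 counts or more, and replicate 1 was the lowest of the 6 rats with tMCAO. ENSRNOT00000040232, which ranked 2, had no counts in Sham and 2178, 1835 and 3691 in I/R, but 0, 0 and 1179 in I/R + DEX. Here 2 of the rats given DEX were without a count, while the remaining one lay below the lowest I/R library.

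**Figure D1:**
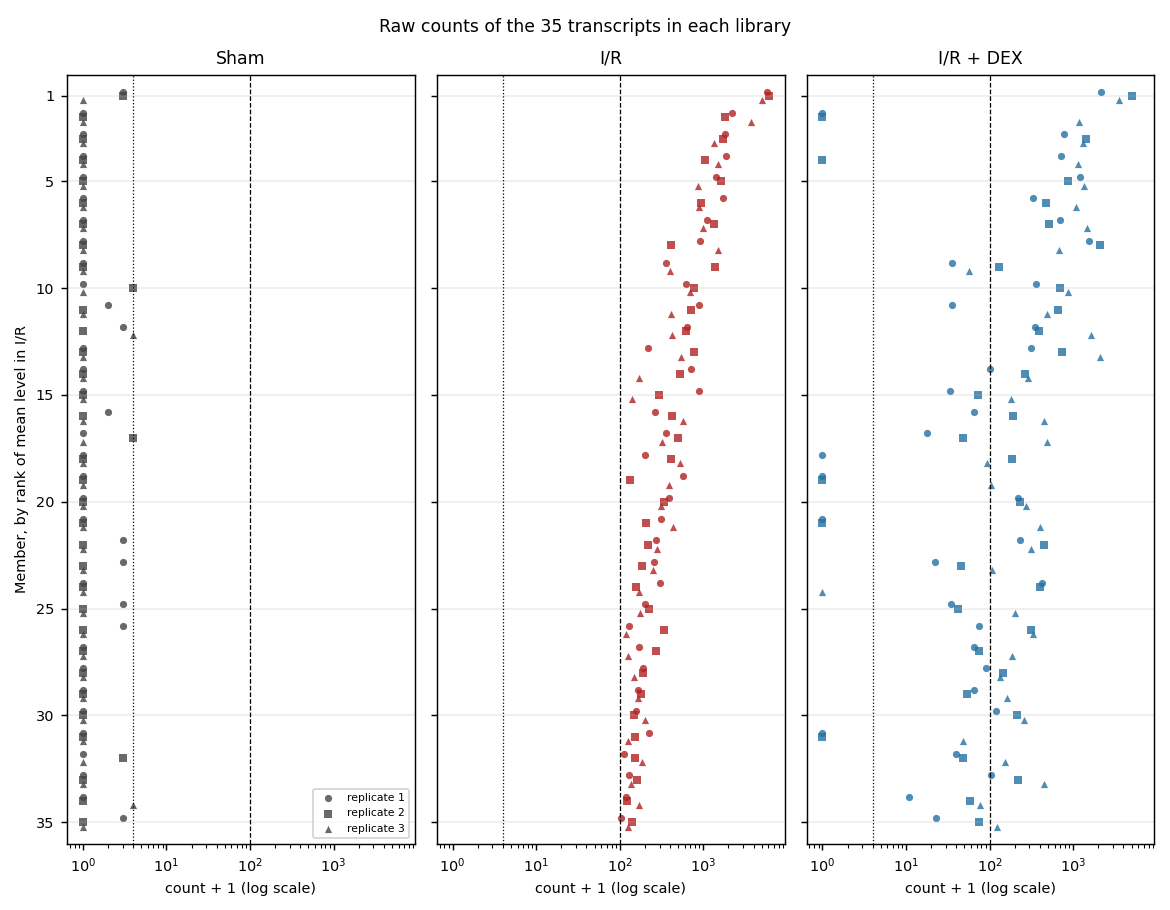
Raw counts plus 1 (horizontal, log scale) of the 35 transcripts (vertical, by rank of mean level in I/R) in the 3 libraries of Sham, I/R and I/R + DEX, with 1 symbol per replicate. The dotted line marks 3 counts and the dashed line 100 counts, the limits used to choose the transcripts. Sham points lie at or left of the dotted line and I/R points at or right of the dashed line by that choice, while I/R + DEX points spread from 0 to 5025 counts.

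Within the I/R group, the ratio of the highest to the lowest of the 3 rats ran from 1.13 to 5.69 over the 35 transcripts (median 1.62). It was above 2 for 11 of them (31.4%). For comparison, 14895 other annotated transcripts also had at least 100 counts in every I/R library but more than 3 in at least 1 Sham library. Their median ratio was 1.32 and 10.7% were above 2, and among the 2337 of them whose lowest I/R count was under 200 the median was 1.52. The highest I/R value of the 35 came from replicate 1 for 9 transcripts, replicate 2 for 16 and replicate 3 for 10. Each of these rats had to reach 100 counts for a transcript to be chosen. The most uneven was the transcript that ranked 15, with 887, 296 and 140 counts in I/R replicates 1, 2 and 3. The most even, which ranked 20, had 392, 338 and 311.

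After DEX the list was still present but unevenly so. Of the 35 transcripts, 28 (80%) had more than 3 counts in every I/R + DEX library, 3 in 2 of the libraries and 4 in only 1, and 0 were without counts in all 3 rats. Of the 14895 comparison transcripts, 99.7% had more than 3 counts in every I/R + DEX library. At the limit of 100 counts in every I/R + DEX library there were 13 of the 35 (37.1%) and 94.1% of the comparison transcripts. Among those whose lowest I/R count was under 200, it was 2 of 16 and 67.4% of 2337. These shares are set side by side as a description and their difference was not tested.

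The 13 transcripts that kept at least 100 counts in every rat given DEX had between 102 and 5025 counts there. Their mean CPM in I/R + DEX was 0.6 to 2.26 times that in I/R (median 1.01), lower in 6 and higher in 7. The split was made by the I/R + DEX counts themselves, which favours higher ratios here and lower ones in the rest. It does not show separate kinds of response to DEX. These ratios include replicate 3, which was the highest rat given DEX for 10 of the 13. The transcript that ranked 3 had 1822, 1712 and 1330 counts in I/R and 783, 1431 and 1301 in I/R + DEX. That which ranked 5 had 1412, 1611 and 853 counts in I/R and 1208, 871 and 1351 in I/R + DEX. In both, the values of the 2 groups overlapped. The 2 transcripts with the largest ratio of I/R + DEX to I/R ranked 13 and 33. Of these, the transcript that ranked 13 had 214, 775 and 540 counts in I/R and 310, 740 and 2097 in I/R + DEX. That which ranked 33 had 127, 159 and 136 counts in I/R and 102, 221 and 447 in I/R + DEX. In each of these, replicate 3 was the highest of the 6 rats with tMCAO, and the groups overlapped.

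Another 15 transcripts had more than 3 counts in every I/R + DEX library and fewer than 100 in at least 1. All 15 were under 100 in replicate 1, 9 were under 100 in replicate 2 and 2 in replicate 3. Their mean CPM in I/R + DEX was 0.107 to 1.31 times that in I/R (median 0.594), lower in 14 of 15. Low ratios follow largely from the split, since every I/R count was at least 100 by the choice. Replicate 3, included in these ratios, was the highest rat given DEX for 13 of the 15. The transcript that ranked 17 shows the spread between these rats, with 354, 503 and 320 counts in I/R and 17, 47 and 480 in I/R + DEX. That which ranked 11 had 892, 710 and 410 counts in I/R and 35, 665 and 488 in I/R + DEX. In CPM after TMM, replicate 3 lay above the I/R range for the one that ranked 17 (16.3 against at most 15.2). In raw counts and by total counts alone it lay within that range. Replicates 1 and 2 lay far below the I/R range. For the one that ranked 11, replicate 1 alone lay below that range.

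The remaining 7 transcripts had a count of exactly 0 in at least 1 I/R + DEX library. Over the 105 values of the 35 transcripts in these libraries, 11 were 0 and 0 lay between 1 and 9 counts, so a transcript was either without counts or had 10 or more. The 7 were all among the 22 without any Sham count, and 0 of the 13 transcripts with 1 to 3 Sham counts had a 0 after DEX. In 4 of the 7, which ranked 2, 19, 21 and 31 (picked out after their values were seen), replicate 3 was the only rat given DEX with counts. Those 3 that ranked 19, 21 and 31 had 104, 399 and 47 counts in that library. In I/R the transcript that ranked 19 had 568, 133 and 392 counts, that which ranked 21 had 312, 205 and 437, and that which ranked 31 had 222, 153 and 123. In CPM after TMM, replicate 3 lay above the I/R range for the one that ranked 21 and below it for those that ranked 19 and 31. In raw counts and by total counts alone, the one that ranked 21 lay within its I/R range there. The transcript that ranked 18 was without counts in replicate 1 alone, with 187 and 92 in replicates 2 and 3 and 201 to 523 in I/R. That which ranked 4 was without counts in replicate 2 alone, with 724 and 1131 in replicates 1 and 3 and 1033 to 1874 in I/R. That which ranked 24 went the other way, with 424 and 399 counts in replicates 1 and 2, none in replicate 3, and 157 to 305 in I/R. The sources used here do not say how a read that fits several transcripts of a locus was counted, and its part in these zeros was not tested.

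Most of the unevenness lay between rats given DEX. Replicate 3 was the highest of the 3 for 28 of the 35 transcripts, replicate 2 for 6 and replicate 1 for 1. Replicate 1 was alone the lowest for 24, replicate 2 for 5 and replicate 3 for 2, with 4 tied at 0. In the comparison transcripts the highest value came from replicates 1, 2 and 3 in 33.8%, 25.4% and 40.8%. These all had more than 3 counts in some Sham library, so the contrast does not make the pattern particular to the 35. Transcripts just outside the Sham limit, given below, mostly shared it. The summed level of the 35 after TMM was 315 CPM in replicate 1, 475 in replicate 2 and 734 in replicate 3. In the 3 I/R libraries it was 693 to 746 CPM. The value of replicate 3 depended on the scaling. It held 21632 raw counts of the 35, against 23434 to 25687 in I/R, and by total counts alone lay below every I/R library. Without ENSRNOT00000009448, which gave the most counts, the summed level after TMM was 249, 327 and 614 CPM against 537 to 563 CPM. Among the 28 transcripts with counts in every I/R + DEX library, the highest rat was 1.38 to 31.2 times the lowest (median 3.58), where the comparison transcripts with counts in all 3 had a median of 1.49.

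Each rat given DEX was also set against the range of the 3 I/R libraries. In replicate 1, 30 of the 35 transcripts lay below every I/R library, 3 within their range and 2 above every one. In replicate 2 these numbers were 23, 7 and 5, and in replicate 3 they were 10, 14 and 11. Of the comparison transcripts, 35.9% lay below the I/R range in replicate 1, 28.6% in replicate 2 and 28.2% in replicate 3. The median of the 35 transcripts, as a log2 ratio to their mean level in I/R, was -1.48 in replicate 1, -1.03 in replicate 2 and 0.12 in replicate 3, with values at 0 set to 3 counts. Over the comparison transcripts these medians were -0.03, 0.00 and -0.01. With libraries scaled by total counts alone, the median of the 35 was -1.44, -1.13 and -0.09. Among these medians only the sign in replicate 3 depended on the scaling. The numbers below, within and above the I/R range use TMM and were not recounted by total counts alone. By the medians the list stood at about its I/R level in replicate 3 and below it in replicates 1 and 2. The summed level in replicate 3 lay within the I/R range with TMM but not by total counts alone. The 3 rats carry the same label. High I/R counts were a condition of the choice, which favours lower values in every rat given DEX.

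**Figure D2:**
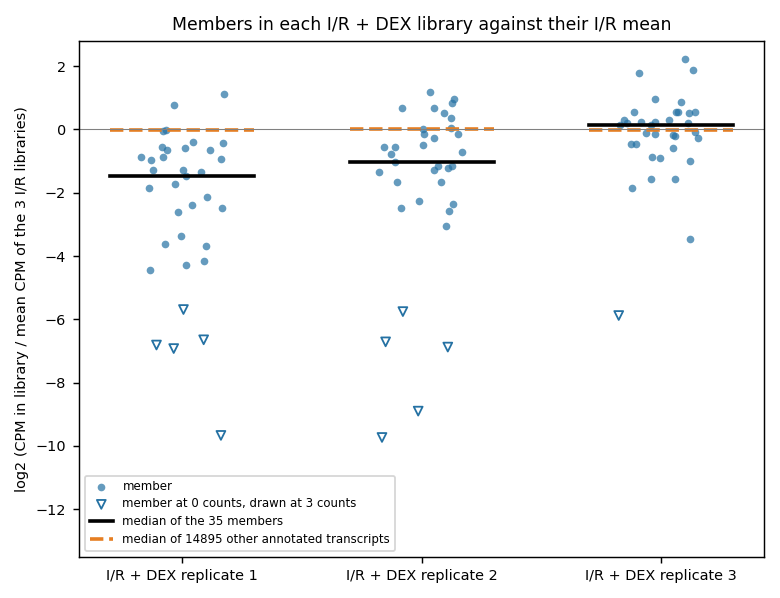
Log2 ratio of the CPM in each I/R + DEX library to the mean CPM of the 3 I/R libraries (vertical), with 1 point per transcript for the 35 transcripts and open triangles for a count of 0, drawn at 3 counts. Black lines are the medians of the 35 (-1.48, -1.03 and 0.12 in replicates 1, 2 and 3) and dashed lines those of the 14895 comparison transcripts, which lie near 0 in each.

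**Figure D3:**
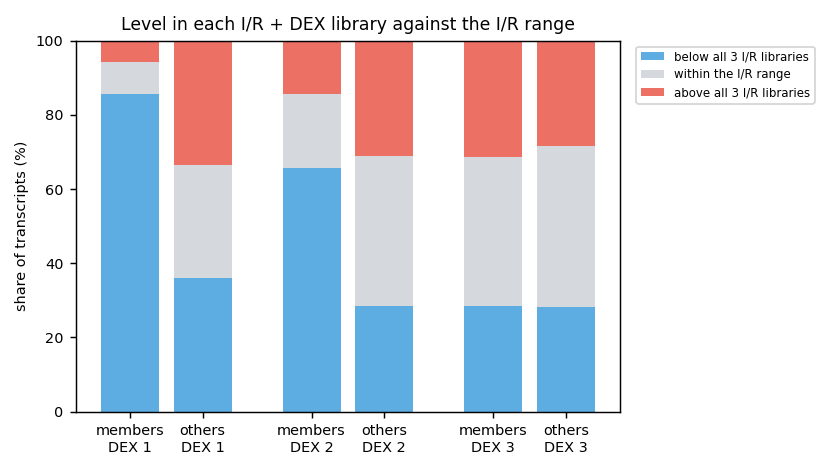
Share of transcripts (%) whose level in a given I/R + DEX library lay below all 3 I/R libraries, within their range or above all 3, for the 35 transcripts (members) and the 14895 comparison transcripts (others). In replicates 1 and 2, 85.7% and 65.7% of the 35 lay below the I/R range, and in replicate 3 28.6% did.

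To ask which of the 35 differed between rats with and without DEX, the 3 libraries of each were compared over the whole table by edgeR's quasi-likelihood test. The cutoff used here was a log2 fold change of more than 0.8 in either direction together with an unadjusted p under 0.05. All 35 transcripts passed the filter on low counts. Because high counts in the I/R libraries were a condition of the choice, lower values elsewhere are favoured. The numbers of negative changes and of calls against I/R, and the p-values of single transcripts, are therefore given as a description. The fitted log2 fold change was below 0 for 26 of the 35 (74.3%) and for 48.8% of all transcripts tested, and its median was -0.65 against 0.01 over all. Without I/R + DEX replicate 3 it was below 0 for 29 of the 35 with a median of -1.31, and without replicate 1 or 2 of that group the median was -0.31 or -0.44. With all libraries it ranged from -3.21 to 1.19. In 8 of the 35 (22.9%) every I/R + DEX library lay below every I/R library, where 5.19% of all transcripts did, and in 0 of the 35 did every one lie above, where 3.8% did.

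At the cutoff, 2 of the 35 (5.71%) fell and 0 rose after DEX, where 1.19% of all transcripts fell and 1.16% rose. The same 2 were those at an unadjusted p under 0.05, where 3.86% of all transcripts were. At a Benjamini-Hochberg adjusted p under 0.05 from edgeR, 0 of the 35 differed, as did 0% of all transcripts, and the smallest adjusted p among the 35 was 0.987. By the adjusted p, DESeq2's Wald test called 1 of the 35, where it called 0.329% of all transcripts. Limma-voom using a quality weight per library called 0 of the 35 and 0.00773% of all.

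ENSRNOT00000076757, which ranked 9, was 1 of the 2 that fell. It had no counts in Sham, 353, 1384 and 395 in I/R, and 35, 129 and 56 in I/R + DEX. The groups did not overlap, and the highest rat given DEX had under 150 counts while I/R replicate 2 stood far above the other I/R rats. Its level was 21.1 ± 18 CPM in I/R and 2.26 ± 1.39 CPM in I/R + DEX (SD, n = 3 each). The log2 fold change was -3.21 (standard error 0.76, unadjusted p = 0.00487, adjusted p = 0.987, edgeR's quasi-likelihood test). It was the transcript with an adjusted p of 0.00418 by DESeq2, and over all 14 alternatives its adjusted p ran from 0.00418 to 1. It passed the cutoff in each of the 14. Without I/R replicate 2, the rat with 1384 counts, the log2 fold change was -2.23. This transcript and the next were named for the smallest p among those that fell, after their I/R counts had served to choose the list. Their p-values and calls, in every alternative, are therefore no independent support for a fall.

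ENSRNOT00000019109, which ranked 23, was the other. It had 2, 0 and 0 counts in Sham, 259, 185 and 246 in I/R, and 21, 44 and 106 in I/R + DEX. The groups did not overlap, with 6.66 ± 0.943 CPM in I/R and 1.85 ± 1.55 CPM in I/R + DEX (SD, n = 3 each). The log2 fold change was -1.84 (standard error 0.622, unadjusted p = 0.0238, adjusted p = 0.987, edgeR's quasi-likelihood test), and the adjusted p ran from 0.318 to 1 over the alternatives. It no longer passed the cutoff without I/R replicate 1, I/R replicate 3 or I/R + DEX replicate 2, with a log2 fold change of -1.81, -1.75 and -1.62 in these fits. Without I/R + DEX replicate 3 it was -2.77.

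ENSRNOT00000009448 had a log2 fold change of -0.54 (standard error 0.293, unadjusted p = 0.11) and ENSRNOT00000040232 one of -2.48 (standard error 2.09, unadjusted p = 0.278) in the same edgeR test. Neither passed the cutoff, although in both every I/R + DEX library lay below every I/R library. ENSRNOT00000040232 passed it in 2 of its 13 alternatives, without I/R + DEX replicate 3 (log2 fold change -14.32, adjusted p = 0.188, edgeR) and with limma-voom (-10.68, adjusted p = 0.318), and its adjusted p ran from 0.188 to 1 over all of them. Its log2 fold change was -7.50 with the replicate number as a block. The value of -2.48 thus rested on replicate 3, and the value without it, against rats at 0 counts, depends on the small count the fit adds and gives no bound.

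The number called rested on I/R + DEX replicate 3. Without this rat, 16 of the 35 fell and 1 rose at the cutoff, where 4.1% of all transcripts fell and 3.2% rose, and 0 had an adjusted p under 0.05 (smallest 0.188, edgeR). The 1 that rose, which ranked 24, is the transcript without counts in replicate 3. Limma-voom, which gives each library a weight by its quality, called 15 lower and 1 higher at the cutoff with all 6 libraries, where it called 4.7% and 3.54% of all transcripts, and 14 transcripts were called in both of these fits. With any other library left out, between 1 and 3 of the 35 passed, and between 1.74% and 3.51% of all transcripts did. In each of these fits the choice of the list favours falls against I/R, so the shares are set side by side as a description.

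**Figure D4:**
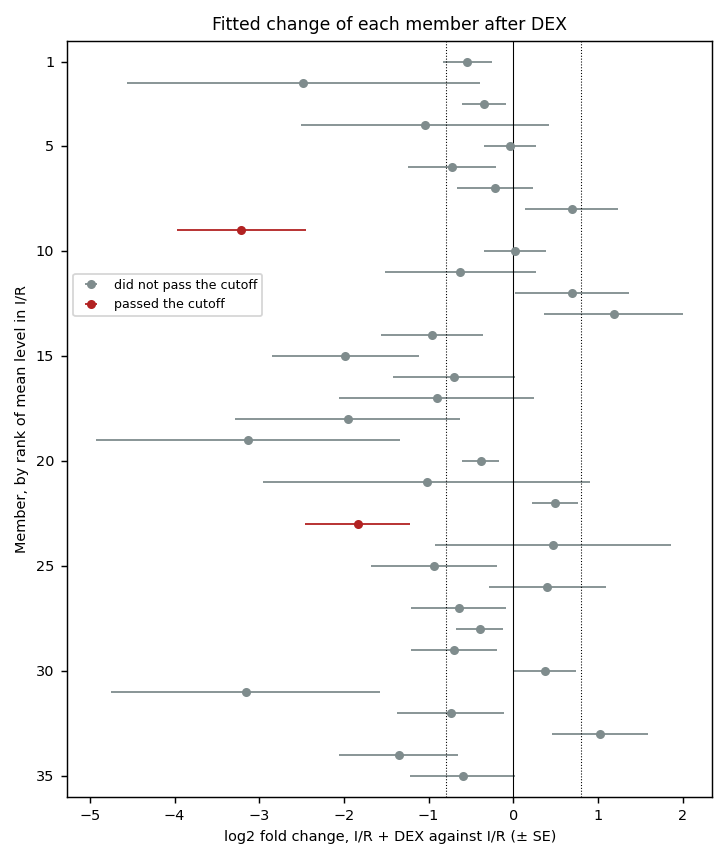
Fitted log2 fold change of I/R + DEX against I/R (horizontal, ± SE from edgeR's quasi-likelihood fit, n = 3 rats each) for each of the 35 transcripts (vertical, by rank of mean level in I/R), with dotted lines at 0.8 either way. The 2 transcripts in red, at -3.21 and -1.84, passed the cutoff, and the widest error bars belong to transcripts with a count of 0 in some I/R + DEX libraries.

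The 28 transcripts with more than 3 counts in every I/R + DEX library lie above all Sham libraries by construction. In the comparison of I/R + DEX with Sham, the filter on low counts kept 27 of the 35 and removed 8, among them the 7 with a 0 after DEX. A transcript at 3 counts or fewer in every Sham library can pass this filter only if it has counts in all 3 rats given DEX, so the calls of the 27 follow largely from the choice and the filter and are no evidence about the list. All 27 were higher in I/R + DEX at an adjusted p under 0.05 (from 0.00175 to 0.048, edgeR), where 11.7% of all transcripts were higher and 20.4% differed in either direction. They also passed the cutoff of fold change and unadjusted p, as did 14.3% of all transcripts upwards, and 37.8% had an unadjusted p under 0.05. The call of many rested on having 3 Sham rats. Without Sham replicate 1, 2 or 3 the number was 12, 13 and 13 of 31 tested, where 3.5%, 2.97% and 3.36% of all transcripts had an adjusted p under 0.05 in either direction.

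Of the 22 transcripts without Sham counts, 15 had counts in every rat given DEX, and their mean level there was at least 19.8-fold to at least 386-fold above 3 counts in each Sham library (median 67-fold). The other 7 had a 0 in some rat given DEX, and in the 4 of them that ranked 2, 19, 21 and 31 any such fold would rest on replicate 3 alone. ENSRNOT00000076757, which had the lowest ratio of I/R + DEX to I/R of all 35 (0.107), thus still had 35 to 129 counts in the rats given DEX and none in Sham.

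The limits of the list cut through a continuum. Just inside the limit for I/R were transcripts with a lowest I/R count of 102, 110 and 117, and just outside it were transcripts with a lowest count of 96, 96 and 95. At the limit for Sham, 4 of the 35 had a highest Sham count of 3, and 11 annotated transcripts with at least 100 counts in every I/R library had a highest Sham count of 4. One of those 11 had 4, 3 and 3 counts in Sham, 1053, 2633 and 1173 in I/R, and 727, 2217 and 4953 in I/R + DEX. Most of the 11 had, like many of the 35, their highest I/R + DEX count in replicate 3. The exceptions had 360, 292 and 349 counts, 1211, 116 and 351 counts, and 906, 773 and 615 counts in replicates 1, 2 and 3.

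The same 2 limits were then applied to the other groups. With at most 3 counts in every Sham library and at least 100 in every I/R + DEX library there were 21 annotated transcripts, and 13 of them are among the 35. In the opposite direction, 4 annotated transcripts had at least 100 counts in every Sham library and at most 3 in every I/R library. Between the 2 groups with tMCAO, 1 annotated transcript had at least 100 counts in every I/R library and at most 3 in every I/R + DEX library, and 0 had the reverse. That transcript is not among the 35, since 0 of them were without counts in all 3 rats given DEX.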

How the data were processed

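Cortical RNA of 9 rats was sequenced by the authors from total RNA libraries. The deposited values are raw counts, whole numbers for each transcript in each library, which the authors did not normalize. The submitters' processing notes name STAR 2.5.3a, StringTie 1.3.1 and the rat build rn6, while the methods of the study name a mouse build and CLC Genomics Workbench. Groups and replicate numbers were taken from the library names. Totals were 21691473 to 36039743 counts, and intervals and floors cover counting error only. Every pair of libraries of a group differed by more than sampling noise.

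Comparisons used R 4.3.3 and edgeR 4.0.16 (TMM, filterByExpr with a count of 10 and a total of 15, quasi-likelihood test on the 6 libraries of 2 groups). Standard errors were obtained from the log2 fold change and the root of its F statistic. CPM were scaled by TMM over all 9 libraries. The scripts were tested on simulated data. Alternatives were RLE factors, total counts, 2 other filters, DESeq2 1.42.0, limma-voom (limma 3.58.1), one fit of all 9 libraries, a block for the replicate number, a log2 limit of 1, other limits of the list, counts scaled to the smallest library and leaving out each library.

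Transcripts named by identifier are the 2 with the highest mean CPM in I/R and the 2 with the smallest p among those lower after DEX whose groups do not overlap. The 35 transcripts, the limits and the tests were chosen with earlier results of these data known. Symbols were sought in RefSeq's gene table for GRCr8, where 0 of 40808 identifiers were found.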

Additional observations from a re-analysis of the deposited data

How the results depend on the processing

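The size of the list followed its limits. It held 22 transcripts at 0 counts in Sham, 79 at up to 10, 68 at 50 counts or more in I/R and 19 at 200 or more. Of these, 15, 72, 55 and 15 had more than 3 counts in every I/R + DEX library, and with up to 10 counts in Sham 35 had at least 100 there. With 1 Sham or I/R library left out the list held 42 to 61 transcripts, the highest without I/R replicate 3 (61) and without Sham replicate 3 (56). With 1 I/R + DEX library left out, 29 of the 35 had more than 3 counts and 14 to 18 at least 100 in the rest.

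For I/R + DEX against I/R, the number of the 35 past the cutoff was 1 to 17 with a library left out, 17 being without I/R + DEX replicate 3 and 1 without I/R replicate 1 or I/R + DEX replicate 2, and it was 16 with limma-voom. DESeq2 gave 1 at an adjusted p under 0.05, where it gave 0.329% of all transcripts. The share of all transcripts past the cutoff was 7.3% without I/R + DEX replicate 3, 8.24% with limma-voom and 1.74% to 3.51% with another library left out. Scaling by total counts moved the median log2 fold change of all transcripts by -0.10, and relative to that median the 35 stood at -0.69, against -0.66 with TMM. For I/R + DEX against Sham, 12 to 29 had an adjusted p under 0.05 with a library left out, the lowest numbers being 12, 13 and 13 without Sham replicates 1, 2 and 3. Requiring 10 counts in every library left none of the 35 to test against Sham. The remaining alternatives kept each count within 1.5 times.

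Equal replicate numbers did not pair the libraries of I/R + DEX and I/R, where the deviations of libraries with one number correlated at -0.004, -0.159 and -0.285. Between I/R + DEX and Sham these correlations were 0.042, 0.042 and 0.061. They were small, but each I/R + DEX library was closest to the Sham library of its own number. With the replicate block 2 of the 35 passed the cutoff against I/R (1.48% of all transcripts) and 0 had an adjusted p under 0.05. Against Sham 27 passed the cutoff and 18 had an adjusted p under 0.05 (25.2% and 7.19% of all transcripts) with that block. With 3 rats a group, small differences could not be detected and large ones could be missed as well. The log2 fold change of -3.21 of ENSRNOT00000076757 had an adjusted p of 0.987 in edgeR's quasi-likelihood test. A transcript with a count of 0 in some rats has a wide error.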
